A study of Sus scrofa with 59 samples.

Results

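Splicing factors and nuclear RNA-binding proteins were followed in longissimus dorsi, a muscle of the back, in 59 pigs. The set comprised every gene whose symbol in the platform annotation began with SFRS, SRSF, HNRNP, HNRP, SNRP, SF3 or PRPF, together with PABPN1, and each gene was represented by its brightest probe set, that with the highest mean over the arrays. These rules gave 55 of the 6765 genes named on the array: 17 hnRNP proteins, 11 SR proteins, 10 snRNP proteins, 9 PRPF proteins, 7 SF3 proteins and PABPN1. 54 of the 55 passed a filter that kept probe sets with a mean of at least 6.27 log2, and SRSF12, with values from 4.03 to 4.96 and a median of 4.48, did not.

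The pigs were an LD/LW x Duroc cross raised on 1 farm, 170 days old, and their muscle was snap-frozen when they were slaughtered. 1 array was hybridised per pig, so that the 59 arrays are separate animals of a single group with no treatment or control. Values of the 33 carcass and meat traits that the labels mention were not used here, and the labels give no sex, slaughter order or array batch. P-values therefore measure covariation against the spread between pigs, and the number of arrays limits the precision.

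Pre-mRNA splicing is carried out by the spliceosome, which is assembled from small nuclear ribonucleoproteins (snRNPs), each a small RNA with a ring of Sm proteins and its own specific subunits. SR proteins mostly bind exons and favour the use of nearby splice sites, whereas hnRNP proteins coat nascent transcripts and often oppose them. Heat shock proteins are the chaperones that cells make when proteins unfold, and splicing is one of the nuclear processes known to be inhibited by heat.

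The labelled tissue was checked first. The 10 measured skeletal muscle fibre markers had a list mean between 14.12 and 14.33 log2 in every pig, near the top of the deposited range of 2.39 to 15.04. Pairs of arrays correlated at r = 0.969 to 0.995, and array medians lay between 6.23 and 6.30 log2. 3 pigs stood apart, and not in the splicing genes alone. 30 of the 54 members had their highest value in pig 36 (12 members), pig 5 (11) or pig 52 (7). The matching share over all genes was not computed. The same pigs had the highest means over the standardised members, at 2.75, 2.49 and 2.75 SD for pigs 36, 5 and 52, and pig 36 also had the highest heat shock score, at 2.74 SD. Pigs 36, 5 and 52 were also highest on the first principal component of probe sets outside the gene lists, at 3.0, 2.4 and 2.6 SD. Counts and slopes that lost their call or moved past 1.5 times without these 3 pigs are given beside the result, and this comparison was chosen after seeing the data.

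The members varied from pig to pig about as much as genes in general. The median SD over the 54 members was 0.182 log2, against 0.197 over all 4928 genes tested, and 23 members exceeded the latter value. Values of different probe sets cannot order genes by amount, because probes differ in how strongly they bind. The highest deposited means belonged to HNRNPA2B1 (13.10), HNRNPH1 (12.01) and HNRNPDL (11.98), and the lowest among tested members to HNRNPU (6.80) and SNRPA (6.92).

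**Figure D1:**
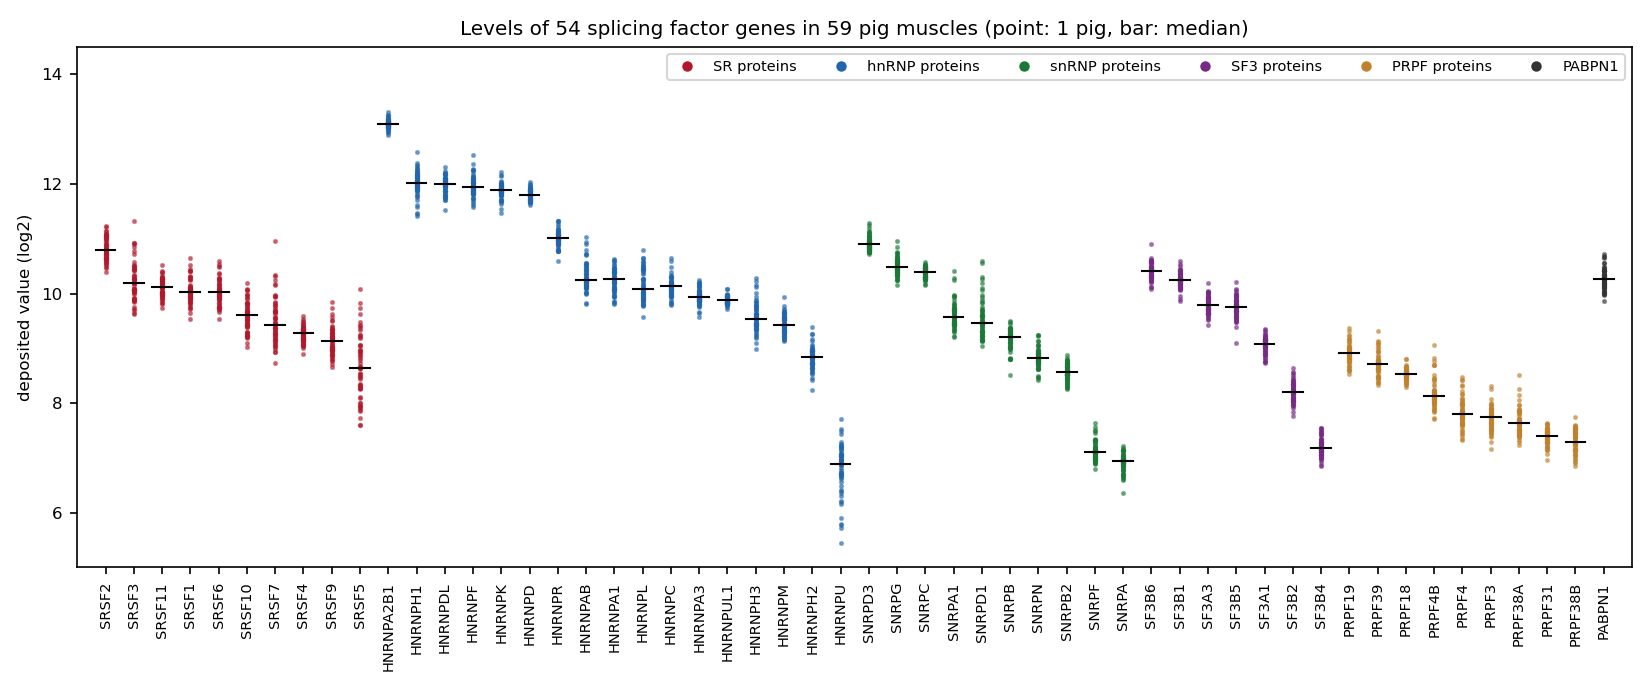
Deposited log2 values (vertical axis) of the 54 tested members in 59 pigs, coloured by role and ordered within a role by mean; a point is 1 pig and a bar the median. SRSF5 and HNRNPU spread over more than 2 log2 units, whereas HNRNPUL1 and HNRNPA2B1 stay within a narrow band.

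SRSF5, an SR protein also known as SRp40, had the widest spread, with an SD of 0.58. Its lowest value was 7.59, its median 8.65 and its highest 10.08. HNRNPU, a chromatin-associated scaffold protein, followed with an SD of 0.46 and values of 5.45, 6.89 and 7.72 at the same 3 points. SRSF7, an SR protein that also takes part in mRNA export, had an SD of 0.42, SNRPD1 of the Sm ring 0.36, and SRSF3, the smallest SR protein, 0.35. At the other end were HNRNPUL1 (0.07), HNRNPA2B1 (0.08), HNRNPD (0.09), SNRPC (0.10) and PRPF18 (0.10). HNRNPA2B1, an abundant hnRNP protein that packages nascent RNA, ranged only from 12.90 to 13.32.

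The members moved together more than genes in general. The median Pearson correlation over the 1431 pairs of members was 0.146 (jackknife SE over pigs 0.030), against 0.006 over pairs of all genes tested, and the corresponding rank correlations were 0.128 and 0.007. The co-variation was uneven: 230 pairs (16.1%) exceeded r = 0.5, whereas 455 pairs (31.8%) were below 0. Without pigs 36, 5 and 52 the median fell to 0.115, against 0.008 over all genes. With the first principal component of probe sets outside the gene lists held constant, an axis carrying 16.5% of their variance, it was 0.048, against 0.011. With the heat shock score held constant instead, it was 0.121, against 0.010.

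The tightest block joined members of different roles. HNRNPAB, an hnRNP protein, and SNRPA1, a protein of the U2 snRNP, had the highest correlation of all pairs (r = 0.887, rho = 0.859, 59 pigs). HNRNPAB was also close to PRPF4B, a nuclear kinase that phosphorylates spliceosome proteins (r = 0.870), to SRSF7 (r = 0.811) and to PRPF4, a protein of the U4/U6 snRNP (r = 0.803). SRSF7 and SNRPD1 correlated at r = 0.860. By mean correlation with the other 53 members, PRPF4 (0.346), HNRNPAB (0.345) and PRPF4B (0.345) led, followed by SRSF7 (0.331), SNRPD1 (0.322), HNRNPH3 (0.317) and SNRPA1 (0.315). Among SF3 proteins, which recognise the branch point within the U2 snRNP, SF3B4 led at 0.263. These genes share the arrays, so their correlations also carry whatever array-wide variation the values contain.

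9 members had a negative mean correlation with the rest. SNRPN, an Sm protein from an imprinted locus that is best known in brain, was lowest at -0.191. It was followed by PRPF18, a factor of the second splicing step (-0.130), HNRNPL, which binds CA repeats (-0.119), and SRSF5 (-0.104). HNRNPUL1 (-0.070) was among the 9 as well, and SF3B5, a small SF3B subunit (-0.020), was the lowest SF3 protein. The lowest pairs were SNRPN with HNRNPDL (r = -0.549), SRSF5 with SRSF9 (r = -0.546), HNRNPL with SF3B4 (r = -0.543), and SNRPN with HNRNPR (r = -0.518) and HNRNPF (r = -0.515). SRSF5 correlated negatively with 35 of the other 53 members.

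Pairs within a role differed in how closely they moved. The median r was 0.360 over 45 pairs of SR proteins, 0.206 over 136 pairs of hnRNP proteins and 0.147 over 45 pairs of snRNP proteins. It was 0.066 over 36 pairs of PRPF proteins and 0.038 over 21 pairs of SF3 proteins. SR proteins with hnRNP proteins reached 0.252 over 170 pairs, above the median within every role but the SR proteins. The differences between roles were not tested.

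**Figure D2:**
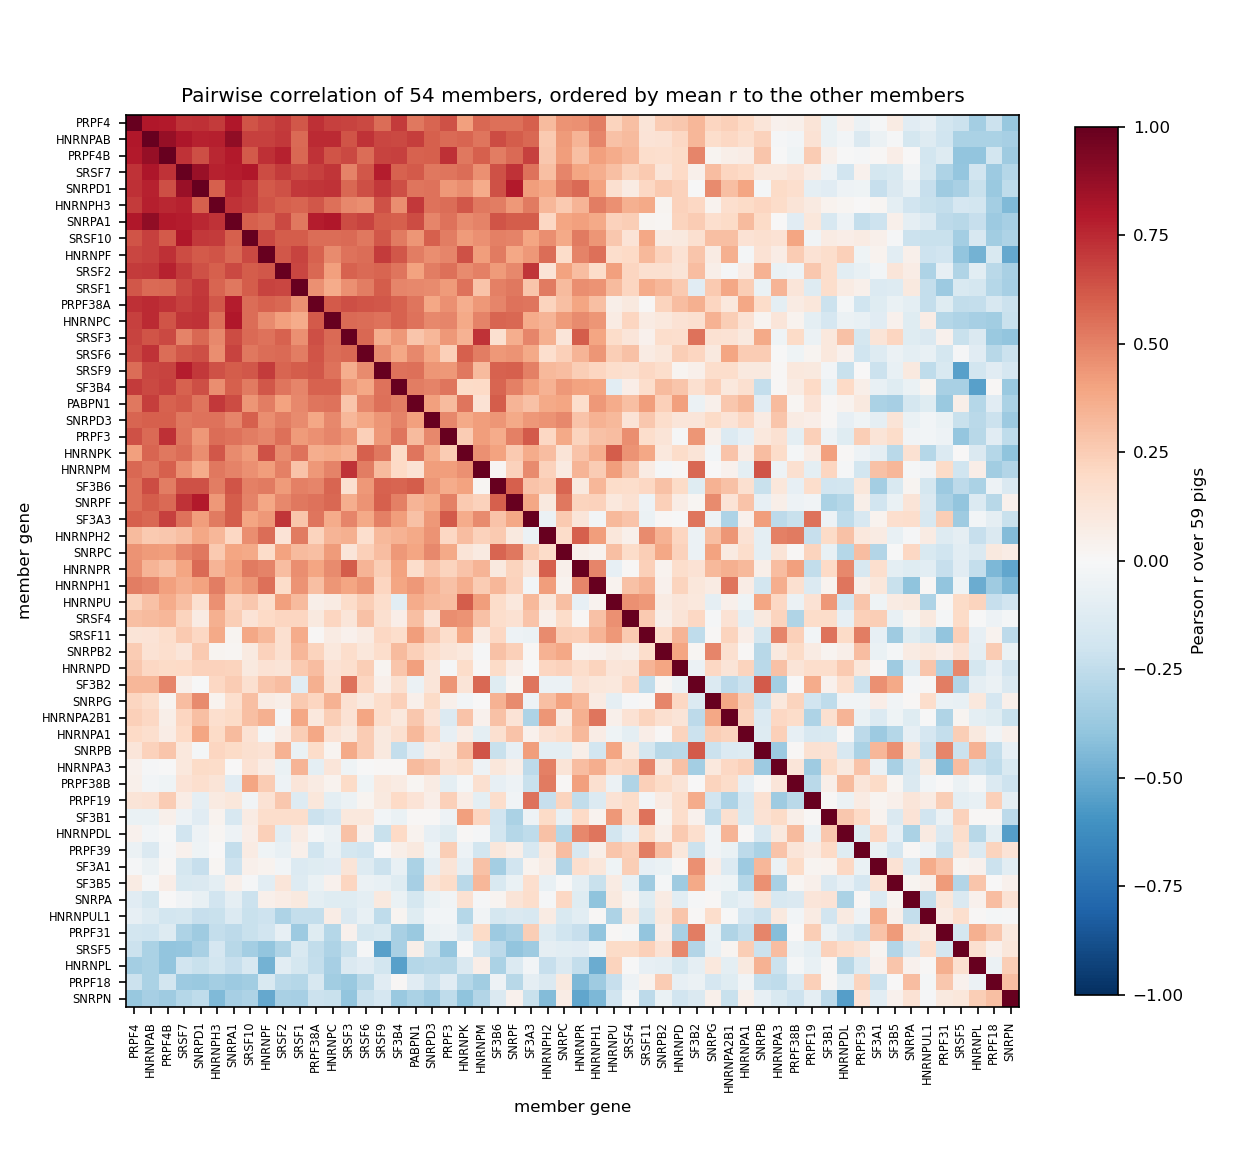
Pearson correlation over 59 pigs for every pair of the 54 tested members (both axes), ordered by mean correlation with the other members; the colour runs from -1 (blue) to 1 (red). A block from PRPF4 to SF3A3 is red almost throughout, and SNRPN, PRPF18, HNRNPL and SRSF5 form the blue margin.

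The heat shock genes were summarised as 1 score per pig, the mean of 21 standardised chaperone and co-chaperone genes scaled to an SD of 1. The score ran from -2.15 in pig 30 to 2.74 in pig 36. DNAJA1, a partner of HSP70, was the gene most like the other 20 (r = 0.940), with values of 9.93, 11.63 and 13.52 as its lowest, median and highest. HSPA8, the constitutive HSP70 (r = 0.924), and BAG3, a co-chaperone of muscle (r = 0.918), came next, and HSPA2 was least like the rest (r = 0.404). The inducible HSPA6 varied most, from 6.50 to 13.60 with a median of 7.86.

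Most members that changed with the heat shock score were higher where the score was higher. In a limma fit over all probe sets with Benjamini-Hochberg adjustment, 29 of 54 members (53.7%) rose with the score at an adjusted p under 0.05. 3 members (5.56%) fell, and 22 were not called. Over all 4907 genes tested outside the score, 25.0% rose and 22.3% fell, so that the members' share of rising genes lay above this background and their share of falling genes below it. The median slope was 0.07 log2 per SD of the score over members and -0.004 over all genes. Among 1284 genes with means in the members' interquartile range, 30.0% rose and 22.6% fell. Without pigs 36, 5 and 52, 26 members rose and 1 fell, against 21.0% and 17.0% of all genes. 5 rising members kept their call there with a slope more than 1.5 times smaller: PRPF38A (0.082), SRSF6 (0.076), SNRPF (0.065), HNRNPC (0.053) and HNRNPM (0.050).

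The mean over standardised members correlated with the heat shock score at r = 0.693 (rho = 0.644, 59 pigs), and at r = 0.666 without the 2 pigs with the most extreme scores, 36 and 30. Both followed the first principal component of the unlisted probe sets, which correlated at r = 0.844 with the score and r = 0.856 with the member mean. With that component as a covariate, 2 members rose and 3 fell, against 4.59% and 5.91% of all genes. 17 of the 32 calls then had the opposite sign, 13 kept their sign without passing the threshold, and SRSF5 and SF3B2 kept sign and call. The other calls in that fit were PRPF31 higher, and PABPN1 and HNRNPD lower.

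The adipocyte markers moved the other way. Their score correlated at r = -0.487 with the heat shock score and r = -0.509 with the member mean. 4 of its 8 measured markers passed the filter, ADIPOQ, PPARG, RBP4 and RETN did not, and the list mean ran from 8.08 to 9.08 log2. In whole muscle, fewer cells of a type and less RNA per cell cannot be told apart. With the adipocyte score as a covariate, 26 members rose and 1 fell, against 22.2% and 18.9% of all genes. The 3'-minus-5' differences of the control probe sets, a sign of RNA quality, all correlated negatively with the heat shock score. Their correlations with the member mean differed in sign. Of the 2 GAPDH controls, 1 correlated at r = -0.445 with the heat shock score and r = -0.282 with the member mean, the other at r = -0.082 and r = 0.225. The 2 actin controls gave r = -0.188 and r = -0.204 with the score and r = 0.065 and r = 0.052 with the member mean. EF1A gave r = -0.205 and r = -0.018. With the first actin and GAPDH pair as covariates 29 members rose and 2 fell, with the second pair 27 and 2, and with EF1A 28 and 2. Of all genes 25.8% rose and 22.9% fell with the first pair, 22.6% and 18.1% with the second, and 25.1% and 21.8% with EF1A. The array median correlated at r = -0.362 with the score and r = -0.539 with the member mean. Re-centring the arrays left 29 members rising and 2 falling, against 27.5% and 18.4% of all genes.

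**Figure D3:**
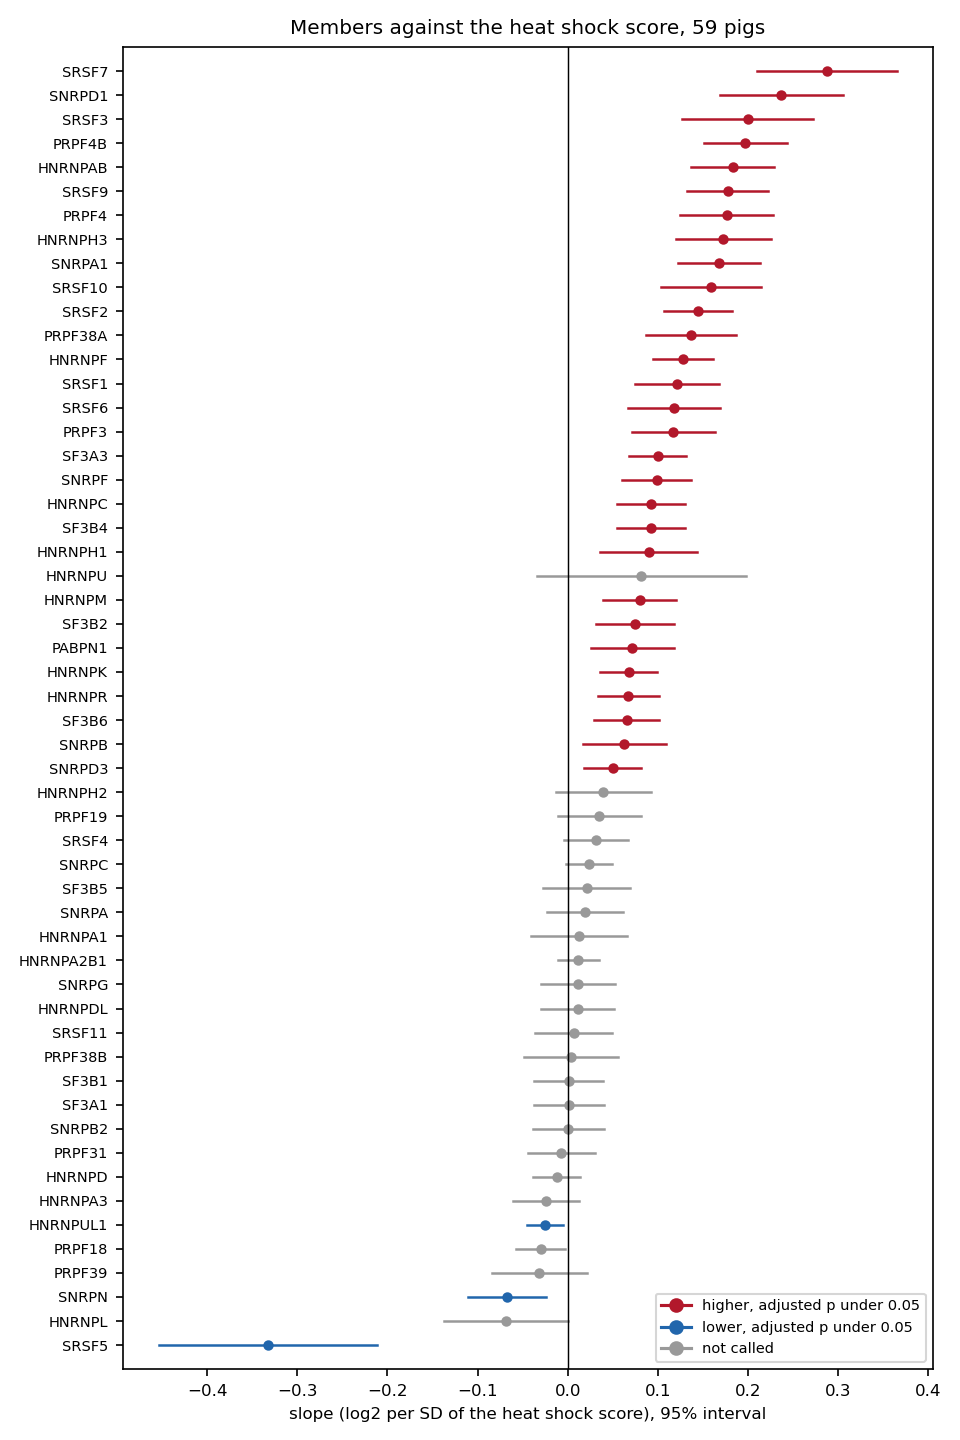
Slope of each tested member in log2 per SD of the heat shock score (horizontal axis) with its 95% interval from limma, 59 pigs; red and blue mark an adjusted p under 0.05. 45 members have slopes above 0, of which the 29 in red run from SNRPD3 to SRSF7, and SRSF5 stands alone at the far left.

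The SR proteins held both extremes. 7 of their 10 tested genes (70%) rose with the heat shock score, 1 (10%) fell and 2 were not called. Of all genes tested outside the score 25.0% rose and 22.3% fell. Counts within a role were not tested against these shares. SRSF7 had the largest slope of all members. Its lowest value was 8.74, its median 9.43 and its highest, in pig 36, 10.97. It rose by 0.29 ± 0.04 log2 per SD (slope ± SE, limma adjusted p = 2.08e-08), with r = 0.687 and rho = 0.633 (permutation p = 1e-05 for both, the smallest that 100000 resamples can give). Without the 2 pigs of most extreme score r was 0.627. Without pigs 36, 5 and 52 the slope was 0.20 (adjusted p = 2.54e-05), and with the principal component as a covariate -0.07 (adjusted p = 0.358).

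SRSF3 had values of 9.62, 10.19 and 11.32 as its lowest, median and highest, and rose by 0.20 ± 0.04 (adjusted p = 1.19e-05). The highest value was that of pig 5, and without pigs 36, 5 and 52 the slope was 0.14 (adjusted p = 0.00176). SRSF9, a regulator of alternative splicing, went from 8.65 through 9.14 to 9.84 and rose by 0.18 ± 0.02 (adjusted p = 4.47e-09). SRSF10, known as the SR protein that turns into a general splicing repressor when heat dephosphorylates it, had values of 9.03, 9.61 and 10.19 and rose by 0.16 ± 0.03 (adjusted p = 5.31e-06). SRSF2, a marker of nuclear speckles, rose by 0.14 ± 0.02 within a range of 10.39 to 11.22, SRSF1 by 0.12 ± 0.02 and SRSF6 by 0.12 ± 0.03. SRSF4 and SRSF11 were not called, with slopes of 0.03 (95% interval -0.005 to 0.067) and 0.01 (-0.04 to 0.05). SRSF4 was called higher with the immediate early covariate (adjusted p = 0.0404), and SRSF11 when its probe sets were averaged (0.0181).

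SRSF5 was the only SR protein whose brightest probe set fell with the heat shock score. It fell by 0.33 ± 0.06 log2 per SD (limma adjusted p = 1.16e-05), with r = -0.571 (permutation p = 2e-05) and rho = -0.564 (permutation p = 3e-05), and r = -0.537 without the 2 pigs of most extreme score. Its lowest value was in pig 5, and pig 36 was the fifth lowest, at 7.88. Pig 32, with the second highest score of 1.78, was an exception: its SRSF5 of 9.37 ranked 52 of 59 from the lowest. The slope was -0.29 (adjusted p = 0.000307) without pigs 36, 5 and 52, and -0.53 (adjusted p = 0.00134) with the principal component as a covariate. SRSF5 correlated negatively with each of the 21 heat shock genes, from r = -0.580 with DNAJA1 to r = -0.148 with HSPA2. The platform annotation names 1 probe set for SRSF5, so no other named probe set of the gene can be set beside it.

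**Figure D4:**
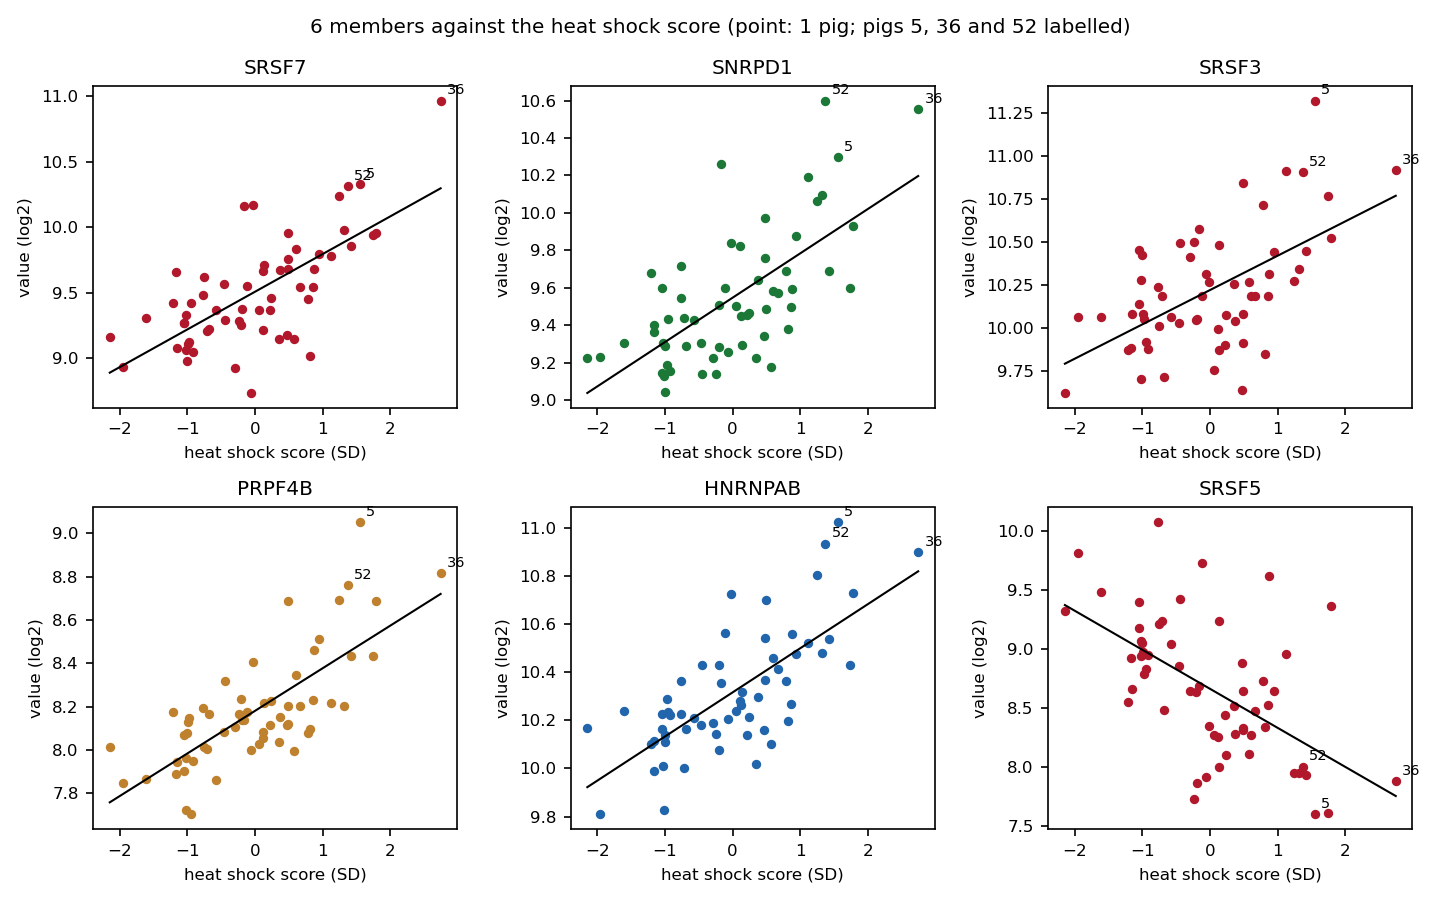
Deposited log2 values (vertical axes) of 6 members against the heat shock score in SD (horizontal axes), a point being 1 of 59 pigs and the line the limma slope. Pigs 5, 36 and 52 are labelled; they lie at the top in SRSF7, SNRPD1, SRSF3, PRPF4B and HNRNPAB and low in SRSF5.

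Of the 17 hnRNP proteins, 8 rose (47.1%), 1 fell (5.88%) and 8 were not called, against 25.0% rising and 22.3% falling of all genes. HNRNPAB had values of 9.81, 10.24 and 11.02 as its lowest, median and highest, and rose by 0.18 ± 0.02 (adjusted p = 3.36e-09). HNRNPH3 went from 8.99 through 9.53 to 10.28 and rose by 0.17 ± 0.03 (adjusted p = 4.05e-07). Its relatives that bind runs of G also rose, HNRNPF by 0.13 ± 0.02 and HNRNPH1 by 0.09 ± 0.03, whereas HNRNPH2, at 0.04 ± 0.03, was not called but rose with HSP70 genes alone in the score (adjusted p = 0.0115). HNRNPH1 lost its call without pigs 36, 5 and 52 (slope 0.06, adjusted p = 0.0901). HNRNPC, which binds runs of U (0.09 ± 0.02), HNRNPM (0.08 ± 0.02), HNRNPK, which binds runs of C (0.07 ± 0.02), and HNRNPR (0.07 ± 0.02) completed the 8.

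Other hnRNP proteins were not called through their brightest probe set. The slopes of HNRNPA1 (0.01, 95% interval -0.04 to 0.07), HNRNPA2B1 (0.01, -0.01 to 0.03) and HNRNPA3 (-0.02, -0.06 to 0.01) were not called. Neither were those of HNRNPD, which binds AU-rich elements (-0.01, -0.04 to 0.01), and HNRNPDL (0.01, -0.03 to 0.05). With the principal component as a covariate HNRNPD fell by 0.096 (adjusted p = 0.00234), and with quantile normalisation HNRNPA3 fell by 0.043 (adjusted p = 0.0368). HNRNPU had a slope of 0.08 with a wide interval of -0.03 to 0.20. HNRNPL, at -0.07 (-0.14 to 0.001), was called lower when pig 30 was left out (adjusted p = 0.0479) or when the score held HSP70 genes alone (adjusted p = 0.0481). HNRNPUL1, a relative of HNRNPU, fell by 0.03 ± 0.01 (adjusted p = 0.0380), a call lost without any 1 of 8 pigs (5, 11, 16, 32, 37, 38, 41 and 54; highest adjusted p = 0.0725). Without pigs 36, 5 and 52 its slope was -0.0261 against -0.0255 with them (adjusted p = 0.0502), and it missed the threshold under 9 other alternatives.

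Among the snRNP proteins 5 of 10 rose (50%), 1 fell (10%) and 4 were not called, against 25.0% rising and 22.3% falling of all genes. SNRPD1 had values of 9.04, 9.46 and 10.60 as its lowest, median and highest, the last in pig 52. It rose by 0.24 ± 0.03 (adjusted p = 1.00e-07), with r = 0.664 and rho = 0.616 (permutation p = 1e-05 for both) and r = 0.607 without the 2 pigs of most extreme score. Without pigs 36, 5 and 52 the slope was 0.16 (adjusted p = 5.46e-05). Other parts of the same Sm ring rose less: SNRPF by 0.10 ± 0.02, SNRPB by 0.06 ± 0.02 and SNRPD3 by 0.05 ± 0.02, and SNRPG was not called at 0.01 ± 0.02. SNRPB lost its call without pig 41 (adjusted p = 0.0516) and under 6 alternatives besides the principal component, with adjusted p between 0.0616 and 0.129. SNRPD3 lost it without pigs 36, 5 and 52 (adjusted p = 0.0731) and with the adipocyte covariate (0.116).

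The snRNP-specific subunits differed. SNRPA1 of the U2 snRNP ran from 9.21 through 9.58 to 10.42 and rose by 0.17 ± 0.02 (adjusted p = 2.80e-08), whereas its partner SNRPB2 had a slope of 0.00 (95% interval -0.04 to 0.04). SNRPA and SNRPC of the U1 snRNP were not called, at 0.02 ± 0.02 and 0.02 ± 0.01. SNRPN, with values of 8.42, 8.82 and 9.24, fell by 0.07 ± 0.02 (adjusted p = 0.0103), and its adjusted p was 0.108 without pigs 36, 5 and 52, 0.112 with the adipocyte covariate and 0.0604 with the immediate early covariate.

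Of the 9 PRPF proteins, 4 rose (44.4%) and 5 were not called, against 25.0% rising and 22.3% falling of all genes. PRPF4B had values of 7.70, 8.14 and 9.05 as its lowest, median and highest, and rose by 0.20 ± 0.02 with the smallest adjusted p of any member (5.56e-10). Its r was 0.743 and its rho 0.721 (permutation p = 1e-05 for both), and r was 0.721 without the 2 pigs of most extreme score. PRPF4 went from 7.32 through 7.79 to 8.48 and rose by 0.18 ± 0.03 (adjusted p = 1.41e-07), and PRPF3, which binds PRPF4 in the U4/U6 snRNP, rose by 0.12 ± 0.02. PRPF31 of the same particle was not called, at -0.01 (95% interval -0.04 to 0.03). PRPF38A, a protein of the precatalytic spliceosome, went from 7.23 through 7.64 to 8.50 and rose by 0.14 ± 0.03 (adjusted p = 1.39e-05). Its relative PRPF38B had a slope of 0.00 ± 0.03. PRPF19, a ubiquitin ligase of the spliceosome (0.04 ± 0.02), and PRPF39 (-0.03 ± 0.03) were not called, though PRPF19 was without the 2 pigs of most extreme score (adjusted p = 0.0406). PRPF18, at -0.03 ± 0.01 (adjusted p = 0.0698), was called lower without pig 1, 2, 11, 16 or 26. It was also called lower with quantile normalisation (adjusted p = 0.0228), normal scores (0.0221) or the median of the heat shock list (0.0361).

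Of the 7 SF3 proteins, 4 rose (57.1%) and 3 were not called, against 25.0% rising and 22.3% falling of all genes. SF3A3 rose by 0.10 ± 0.02 (adjusted p = 8.71e-07), SF3B4 by 0.09 ± 0.02, SF3B2 by 0.07 ± 0.02 and SF3B6, which lies at the branch point, by 0.07 ± 0.02. SF3B1, the largest subunit and the one most often mutated in blood cancers, had a slope of 0.00 (95% interval -0.04 to 0.04), as had SF3A1. SF3B5 was not called, at 0.02 ± 0.02. SF3B2 missed the threshold with HSP70 genes alone in the score (adjusted p = 0.0551).

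PABPN1, the nuclear poly(A)-binding protein whose repeat expansion causes oculopharyngeal muscular dystrophy, had values of 9.86, 10.27 and 10.72 as its lowest, median and highest. It rose by 0.07 ± 0.02 log2 per SD (limma adjusted p = 0.00958), with r = 0.377 (permutation p = 0.00323), rho = 0.321 (permutation p = 0.0138) and r = 0.336 without the 2 pigs of most extreme score. The slope was 0.04 (adjusted p = 0.223) without pigs 36, 5 and 52, and -0.13 (adjusted p = 0.007) with the principal component as a covariate. Averaged over its 3 probe sets PABPN1 had a slope of 0.016 (adjusted p = 0.535), and it also missed the threshold with the second control pair, the adipocyte score or the immediate early score as a covariate (adjusted p = 0.0765 to 0.0799).

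Heat shock genes differed in how closely the members followed them. DNAJA1 had the highest median correlation with the 54 members (0.382) and was positive with 42 of them, and 14 members had their highest correlation with it. BAG3 (median 0.367), HSPA8 (0.339) and CACYBP, a co-chaperone linked to ubiquitin ligases (0.337), followed. STIP1, which joins HSP70 to HSP90 (0.196), and HSPA2 (0.175) were lowest. 31 members correlated positively with all 21 heat shock genes, and 4 correlated negatively with all of them: SRSF5, SNRPN, HNRNPUL1 and PRPF18.

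Probe sets of 1 gene did not always move alike. 20 members had several probe sets. Of the 34 additional probe sets 25 passed the filter, and their correlation with the gene's brightest probe set had a median of 0.445 and ranged from -0.188 to 0.831. 14 members had more than 1 tested probe set, and slopes of both signs occurred in 5 of them. All tested probe sets of SRSF1, SRSF10 and HNRNPR rose with the heat shock score. SRSF6 was the only member with calls in both directions: its brightest probe set rose by 0.12, whereas 2 dimmer ones had slopes of -0.09 and -0.10 (adjusted p = 0.0281 and 0.0263). Averaged over all its probe sets, SRSF6 had a slope of -0.01 (adjusted p = 0.615). In SRSF11 the brightest probe set was not called, but 2 others rose by 0.07 and 0.10. In HNRNPA2B1 and HNRNPD a dimmer probe set fell by 0.05 and 0.04. The other 2 probe sets of PABPN1 were not called, at 0.02 and -0.06. A dimmer tested probe set was also not called in SNRPN (-0.04, limma adjusted p = 0.160) and HNRNPK (0.03, adjusted p = 0.208). Which transcripts each probe set detects was not examined here.

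**Figure D5:**
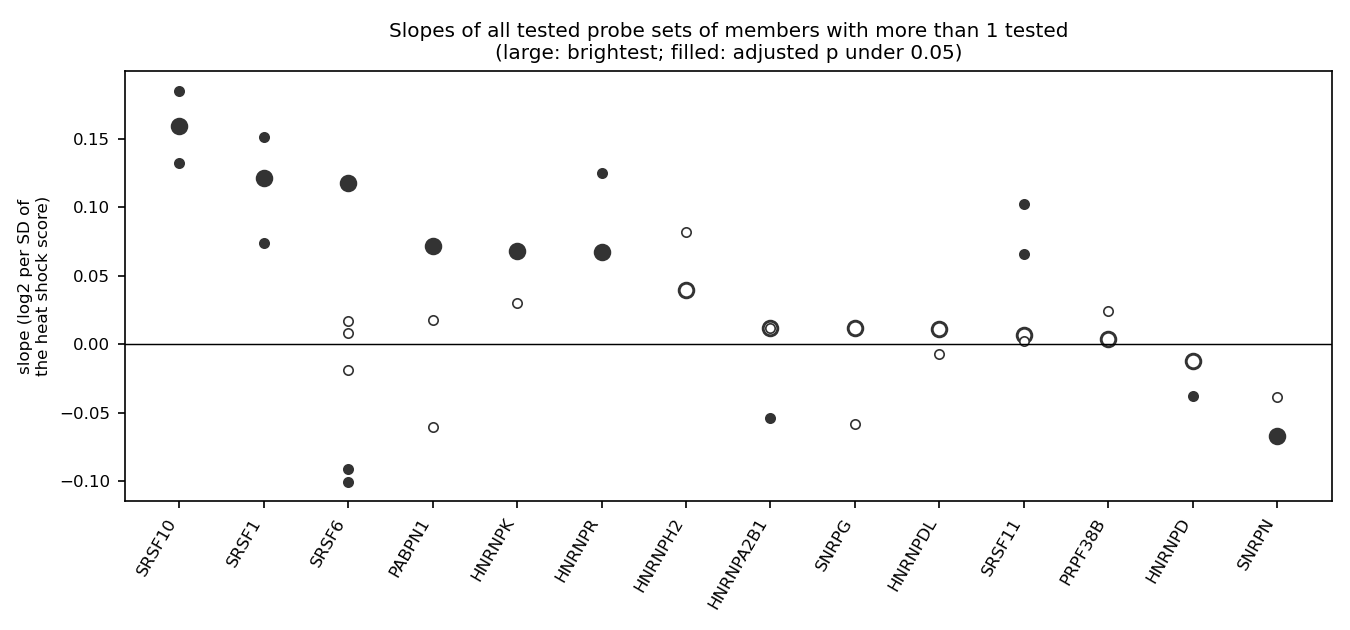
Slopes in log2 per SD of the heat shock score (vertical axis) for all tested probe sets of the 14 members with more than 1; the large point is the brightest probe set and filled points have an adjusted p under 0.05. All points of SRSF10, SRSF1 and HNRNPR are filled and above 0, and SRSF6 has filled points on both sides of 0.

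Other genes of splicing and RNA processing showed a similar share. Of 53 tested genes on a list outside the members, 28 rose (52.8%) and 5 fell (9.43%) with the heat shock score. Of all genes 25.0% rose and 22.3% fell. PAPOLA, the nuclear poly(A) polymerase, had values of 9.79, 10.50 and 11.87 and rose by 0.36 ± 0.03 (limma adjusted p = 9.24e-16), more than any member. SYNCRIP, an hnRNP-like protein (0.20 ± 0.03), TRA2B, an SR-like splicing activator (0.16 ± 0.02), PABPC1, the cytoplasmic poly(A)-binding protein (0.16 ± 0.02), the export adaptor ALYREF (0.14 ± 0.02) and the helicase DDX46 (0.14 ± 0.03) followed. CELF2, a regulator of muscle splicing, fell by 0.21 ± 0.03 (adjusted p = 2.54e-07). The cold-inducible RBM3 fell by 0.16 ± 0.06, and its relative CIRBP by 0.12 ± 0.02. RBFOX2 fell by 0.10 ± 0.03 and MATR3 by 0.06 ± 0.02. The 4 CLK genes, whose kinases phosphorylate SR proteins, were not called.

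Set beside other machinery, 23 of 37 proteasome genes rose and 4 fell, and 16 of 38 translation factors rose and 3 fell. Of 55 cytosolic ribosomal protein genes 1 rose and 1 fell. The rising shares were 62.2% (proteasome), 42.1% (translation factors) and 1.82% (ribosomal proteins), and the falling shares 10.8%, 7.89% and 1.82%. Of all genes 25.0% rose and 22.3% fell. Differences between these lists and the members were not tested.

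The other 3 gene scores called fewer members than the heat shock score, and also fewer genes of any kind. With the immediate early score, which summarises transcription factors induced within minutes of a stimulus, 6 of 54 members rose and 0 fell. Of 4913 genes 5.86% rose and 5.74% fell. At an unadjusted p under 0.05 in limma 13 members rose and 2 fell, and the share of all genes at that threshold was not computed. SRSF7 rose by 0.19 ± 0.05 (adjusted p = 0.00831), HNRNPH3 by 0.13 ± 0.03 (0.00678) and SRSF9 by 0.12 ± 0.03 (0.00363). PRPF38A (0.09 ± 0.03) and HNRNPF (0.07 ± 0.02) were called as well, and HNRNPK (0.05 ± 0.02, adjusted p = 0.0493) was the sixth, a call lost without any 1 of 35 pigs (highest adjusted p = 0.182). SNRPD1 (0.11 ± 0.04) and SRSF10 (0.09 ± 0.03) had larger slopes than PRPF38A but were not called (adjusted p = 0.0939 and 0.0509). The count was 2 without pig 36, 3 without pig 37, 11 without pig 1 or pig 4 and 10 without pig 9. It was 0 without pigs 36, 5 and 52, where 1.18% of all genes rose. The shares of all genes without single pigs are not given here.

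With the oxidative phosphorylation score, SNRPN rose by 0.07 ± 0.02 (limma adjusted p = 0.0302) and SNRPC by 0.04 ± 0.01 (0.0321), whereas SF3A1 fell by 0.06 ± 0.02 (0.0170). All genes had shares of 9.53% higher and 3.40% lower. SNRPN's call was lost without pig 21, 36 or 72, that of SNRPC without pig 19 or 52 and that of SF3A1 without pig 72, and 7 members rose without pig 36. With pig 52, 66 or 71 left out, 2 fell. With the extracellular matrix score 0 members rose and 4 fell, against 9.47% and 2.87% of all genes. At an unadjusted p under 0.05 in limma 0 members rose and 10 fell, and the share of all genes at that threshold was not computed. PRPF3 fell by 0.08 ± 0.03 (adjusted p = 0.0362), PRPF19 by 0.08 ± 0.02 (0.0130), SRSF2 by 0.07 ± 0.03 (0.0465) and SNRPC by 0.04 ± 0.01 (0.0235). PRPF19 alone kept its call whichever pig was left out. The count fell to 1 without pig 26 and to 2 without pig 4, 16, 29 or 32. For neither score are the shares of all genes without single pigs given here.

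The non-member genes with the highest correlation to the mean over members, of 4874, were KPNA2, a nuclear import receptor (r = 0.866), ACBD3, a Golgi protein (0.863), SSB, the La protein that binds new RNA polymerase III transcripts (0.857), HSPA13 (0.846), CLTC, the clathrin heavy chain (0.845), ODC1, the first enzyme of polyamine synthesis (0.844), PUS3, a pseudouridine synthase (0.840), and NOP56 of the nucleolar box C/D particles (0.839). The lowest were FZD2, a Wnt receptor (-0.782), ZNF395 (-0.763), LOC100514494 (-0.751), FDFT1, the squalene synthase (-0.739), NFIA, a transcription factor (-0.736), SMARCA2, a chromatin remodeller (-0.708), ITM2B (-0.708) and RPUSD1 (-0.706).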

How the data were processed

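The deposited table holds 1 value per probe set and array. The submitters' processing notes name GCRMA, without a version. All deposited values were read as log2 from their range, since no source used here states the base. GCRMA compresses differences of dim probe sets. Of 24123 probe sets, 124 controls were left out. Tests covered the brighter 12000, those at 6.27 log2 (the median of all means) or more. The platform annotation gave 10099 probe sets 1 symbol, 198 several and 13826 none, and only the first were named. No coordinates or sequences are given. Members, gene lists and scores were chosen with earlier results of these data known.

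Each score is the mean of its list's standardised genes, scaled to an SD of 1. Slopes per SD were fitted with limma 3.58.1 in R 4.3.3 (lmFit, eBayes). Benjamini-Hochberg adjustment ran over all probe sets tested, with the score's own genes left out, and the script was checked on simulated data. Permutation tests (two-sided, 100000 resamples) used Python 3.11.15 with scipy 1.17.1.

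Named members had the largest slopes past the threshold (12 in each direction for heat shock, 4 for other scores), the 5 highest or lowest SD, the 3 highest or lowest mean, the highest or lowest mean correlation in a role, or were among the 5 extreme pairs. PABPN1 was always named. Other members named with values were taken in to account for every member of a role. Outside the members, up to 6 splicing genes in each direction and 8 genes at each end of correlation with the member mean were named.

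Alternatives were no filter, the mean of all probe sets, re-centred or quantile-normalised arrays, another score summary, HSP70 genes only, covariates (principal component, 3'-5' controls, other scores), trend and robust eBayes, normal scores, and leaving out each pig or the extreme pigs.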

Additional observations from a re-analysis of the deposited data

How the results depend on the processing

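With the heat shock score, the count of rising members stayed between 26 and 30 under every alternative but the principal component, with which it was 2. The share of all genes rising ran from 21.0% to 27.5%, and was 4.59% with the principal component. The count of falling members, 3 in the report, was 5 with quantile normalisation and 1 with the adipocyte or immediate early score as a covariate or without pigs 36, 5 and 52. Of all genes 25.9% fell with quantile normalisation, and 18.9%, 18.3% and 17.0% under the other alternatives in that order. Leaving out each pig gave 28 to 29 rising and 2 to 4 falling.

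With the principal component as a covariate, slopes turned to -0.126 (PABPN1), -0.0729 (SRSF7), -0.0656 (PRPF38A), -0.0655 (SRSF6), -0.0567 (SNRPD1), -0.0566 (SF3B6), -0.0477 (SNRPA1), -0.0453 (HNRNPAB), -0.0389 (HNRNPC), -0.0306 (HNRNPH3), -0.0234 (SNRPD3), -0.0180 (HNRNPK), -0.0145 (SRSF1), -0.0115 (PRPF4), -0.00880 (SF3B4), -0.00292 (SNRPF) and -0.00195 (SRSF10), and to 0.0989 for PRPF31. SRSF6 turned to -0.0133 when all its probe sets were averaged.

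Rising members with the immediate early score numbered 3 with the list's median, the adipocyte covariate or without the 2 extreme pigs. They numbered 0 with the principal component or without the 3 pigs, 11 with the first actin and GAPDH 3'-5' pair and 1 with the second. Of all genes 3.89%, 3.18%, 2.69%, 0.427%, 1.18%, 8.35% and 1.26% rose under these alternatives, in that order. 1 member fell with quantile normalisation or normal scores, against 6.78% and 4.17% of all genes. Leaving out each pig gave 2 to 11 rising and 0 to 1 falling.

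With the oxidative phosphorylation score, 0 rose without the filter, 5 after re-centring and 1 with either control pair. Of all genes 7.94%, 11.7%, 8.53% (first pair) and 8.86% (second pair) rose there. 2 members fell with probe sets averaged, with the first control pair, EF1A or the adipocyte covariate, against 2.95%, 1.92%, 3.60% and 3.44% of all genes. 0 fell after re-centring or with the second pair, against 2.45% and 2.88%. Leaving out each pig gave 1 to 7 rising and 0 to 2 falling.

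With the extracellular matrix score, 1 rose with the mean of all probe sets or the adipocyte covariate, against 8.84% and 8.39% of all genes. 2 fell after re-centring, with the first control pair or without the 2 extreme pigs, and 1 with the adipocyte covariate. Of all genes 3.08%, 1.98%, 3.30% and 3.42% fell there. 6 members fell with quantile normalisation or without the 3 pigs, against 5.11% and 3.99% of all genes. 5 fell with the principal component, the list's own component or normal scores, against 4.77%, 3.67% and 3.54%. Leaving out each pig gave 0 rising and 1 to 6 falling.

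The median pairwise r was 0.114 over averaged probe sets, 0.197 after re-centring (all genes 0.026), 0.086 with quantile normalisation (all genes 0.001), 0.048 given the principal component and 0.115 without the 3 pigs. Leaving out each pig gave 0.129 to 0.152 for it and 0.178 to 0.183 for the median SD. The causes of these shifts were not tested. Shares of all genes with single pigs left out are not given here. The EF1A, second control pair, adipocyte and 3-pig alternatives were chosen after seeing the data. No paired analysis was possible because all pigs form 1 group.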
